A study of Homo sapiens with 60 samples.

Results

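The enzymes of cholesterol synthesis and fatty acid synthesis, with the main controls of the sterol branch, were followed in HT29, a cell line from a human colorectal adenocarcinoma, which had been exposed for 24 h to extracts of herbs from traditional Korean medicine. They are 31 genes, taken by symbol as the enzymes and controls of these pathways, 21 of the sterol branch and 10 of the fatty acid branch, and all 31 were among the 16445 genes that passed the filter on low counts. The 60 libraries held vehicle (0.1% DMSO by the labels, 3 libraries), water decoctions of the multi-herb formulas Palmul-tang and Sibjeondaebo-tang, and extracts in ethanol of the single herbs Ginseng, Angelica, Atractylodes and Glycyrrhiza (licorice) and of Poria. The high, medium and low doses were 500, 100 and 20 µg/mL. Those of Glycyrrhiza were 350, 70 and 14 µg/mL and those of Angelica 320, 64 and 12.8 µg/mL, which the labels tie to an IC20. Each dose had 3 libraries, except 1 for Angelica. All cells, vehicle included, grew in medium with fetal bovine serum, so the libraries hold no group without an outside source of lipids. By the sample names, set 8 holds both decoctions, set 9 Atractylodes with Poria, set 10 Ginseng with Glycyrrhiza and set 11 Angelica, while vehicle has no set number. Nothing in the labels says that replicates were separate cultures, so the spread behind each p-value is that of these libraries and may be technical.

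Sterol synthesis begins with the joining of acetyl-CoA units to HMG-CoA and mevalonate, goes on through the isoprenoid phosphates to squalene, and closes squalene to lanosterol, whose ring is then trimmed to cholesterol. The transcription factor SREBP2, the product of SREBF2, raises the genes of these steps when sterols in the endoplasmic reticulum run low, and INSIG proteins hold it back when sterols are ample. Fatty acid synthesis starts from the same acetyl-CoA, and the liver X receptors, which sense oxidised sterols, raise sterol efflux and some genes of fatty acid synthesis. Proliferating epithelial tumour cells use both branches to build membranes.

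The promoters of the members were read first, because the members of the sterol branch moved together in the data below. RefSeq (GRCh38.p14) held the 250 bases before a transcription start for 27 of the 31 genes, and ACAT2, FDFT1, SQLE and FASN had no entry. On either strand, the sterol response element core TCACNCCAC was found in 1 of 23 windows of sterol genes, that of SREBF2, in 0 of 14 windows of fatty acid genes and in 0.883% of all 35116 windows. The NF-Y box CCAAT was in 18 of the 23 sterol windows (78.3%) and 7 of the 14 fatty acid windows (50.0%), against 32.0% of all. The SP1 box GGGCGG was in 21 (91.3%) and 12 (85.7%), against 42.6%. Several genes have more than 1 start, so windows of a gene can overlap, and GC-rich promoters hold GGGCGG more often. A match is a run of letters and not a binding site. Only these exact letters in these 250 bases were searched, so a window without a match may still hold a site. The 5 windows below are those of the regulator SREBF2, of ACSS2 and TM7SF2, which changed in the most extracts, and of HMGCS1 and IDI1. HMGCS1 and IDI1, like MVK and FDPS, fell with both Atractylodes and Glycyrrhiza. They were taken because their median size of change from low to high dose over the extracts was larger. Capitals mark TCACNCCAC and CCAAT on either strand (CCAAT reads ATTGG on the other strand), and in IDI1 a CCAAT and an ATTGG overlap. Each is written 5′ to 3′ on the strand of its gene, and where a gene had several starts the window with most of these motifs is shown.
SREBF2, GRCh38.p14 chr22:41832855-41833104, plus strand: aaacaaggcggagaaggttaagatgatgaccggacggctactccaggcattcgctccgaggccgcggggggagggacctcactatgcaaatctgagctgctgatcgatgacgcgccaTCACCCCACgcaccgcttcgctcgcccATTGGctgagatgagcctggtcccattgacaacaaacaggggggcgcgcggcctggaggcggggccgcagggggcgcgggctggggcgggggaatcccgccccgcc
HMGCS1, GRCh38.p14 chr5:43313413-43313662, minus strand: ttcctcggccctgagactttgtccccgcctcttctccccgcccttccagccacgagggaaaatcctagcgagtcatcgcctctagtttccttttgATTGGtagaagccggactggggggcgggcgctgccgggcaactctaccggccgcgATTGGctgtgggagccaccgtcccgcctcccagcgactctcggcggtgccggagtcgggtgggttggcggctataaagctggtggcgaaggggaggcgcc
IDI1, GRCh38.p14 chr10:1048887-1049136, minus strand: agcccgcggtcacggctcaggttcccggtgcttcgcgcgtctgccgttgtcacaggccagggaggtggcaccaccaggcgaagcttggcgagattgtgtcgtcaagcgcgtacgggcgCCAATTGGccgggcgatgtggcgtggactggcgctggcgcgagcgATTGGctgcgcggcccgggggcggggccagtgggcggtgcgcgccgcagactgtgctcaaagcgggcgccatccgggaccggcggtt
TM7SF2, GRCh38.p14 chr11:65111622-65111871, plus strand: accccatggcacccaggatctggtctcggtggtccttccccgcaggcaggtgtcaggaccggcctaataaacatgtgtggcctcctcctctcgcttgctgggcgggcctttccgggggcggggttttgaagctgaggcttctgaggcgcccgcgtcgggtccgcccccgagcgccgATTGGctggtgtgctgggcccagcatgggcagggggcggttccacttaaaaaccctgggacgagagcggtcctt
ACSS2, GRCh38.p14 chr20:34874739-34874988, plus strand: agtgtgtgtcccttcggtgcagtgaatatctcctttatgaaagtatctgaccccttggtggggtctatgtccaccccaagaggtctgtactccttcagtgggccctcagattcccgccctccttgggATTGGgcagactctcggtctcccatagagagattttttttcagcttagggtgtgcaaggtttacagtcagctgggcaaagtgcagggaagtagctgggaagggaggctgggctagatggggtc

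In vehicle the members spanned a wide range of levels, given here as counts per M counts (CPM) per kb of exon (mean ± SD, n = 3), the scale on which genes can be compared. SCD, which puts the first double bond into saturated fatty acids, led at 345 ± 9.3. SQLE, which oxidises squalene, followed at 207 ± 10.6, then FASN, the fatty acid synthase, at 106 ± 2.89 and DHCR7, which makes cholesterol in the last step of its branch, at 98.9 ± 4.25. ACLY, which makes cytosolic acetyl-CoA from citrate, stood at 74.2 ± 2.63 and HMGCS1, the HMG-CoA synthase, at 59.1 ± 6.41. SREBF2 was at 37.9 ± 0.588. Low members were ACSS2, which makes acetyl-CoA from acetate, at 4.7 ± 0.148, HSD17B7, a sterol ketone reductase, at 3.46 ± 0.235, and GPAM, the acyltransferase that opens glycerolipid assembly, at 2.27 ± 0.00562. The desaturases of polyunsaturated fatty acids were lowest, FADS1 at 0.564 ± 0.0743 and FADS2 at 0.017 ± 0.00969. FADS2 had 2 to 13 counts per library and FADS1 93 to 175, and the fold changes of FADS2 carry large errors at this depth. FADS1 and FADS2 also overlap each other on opposite strands, as do ACAT2 with TCP1, MVK with MMAB and FDPS with RUSC1-AS1. The sources used here do not give whether counting used the strand, so these genes are less certain, FDPS also because of 8 named pseudogene copies. In all 15 of the 31 members overlap another annotated gene. TM7SF2 overlaps VPS51 on the same strand, which strand information would not separate, so it is less certain too.

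Library totals ran from 19.31 to 29.62 M counts (M, 1000000), and replicates correlated at r of 0.9865 to 0.9933. Of the epithelial markers, KRT8, KRT18, EPCAM, LGALS4 and VIL1 were high in all libraries, while the colon transcription factors CDX1 and CDX2 and the cadherin CDH17 were low, with medians of 0.914, 4.57 and 4.51 CPM. Of the markers of other cell types MS4A1, KDR and ADIPOQ were at 0 in all 60 libraries. LYZ and SERPINA1 of the leukocyte and hepatocyte lists were high throughout, with medians of 1485 and 370.2 CPM, and CD68 and CD14 of the leukocyte list had medians of 6.22 and 3.55 CPM. Each of the others had a median below 2 CPM. The vehicle libraries held a mitochondrial share of 10.2% ± 1.36 (SD, n = 3) against means of 6.83% to 8.83% in the treated groups of 3.

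High and low dose of the same extract were compared first, to see which members moved with dose, and this comparison needs no vehicle library. A gene is called, and is said to rise or fall, at a Benjamini-Hochberg adjusted p below 0.05 over all 16445 genes of that comparison in edgeR's quasi-likelihood test. Changes are log2 fold changes ± SE of the fit. With Atractylodes most of the sterol branch fell, with Glycyrrhiza part of the fatty acid branch rose and a few early sterol genes fell, and with the other 4 extracts 1 or 2 members changed. In bulk RNA a change in some of the cells and a smaller one in all of them cannot be told apart. With Atractylodes 18 of 21 sterol genes fell and 0 rose, and 1 of 10 fatty acid genes rose and 2 fell. That is 85.7% and 30% of the lists, against 3.95% of all tested genes called, 2.01% lower and 1.93% higher. With Glycyrrhiza 1 sterol gene rose and 4 fell, and 5 fatty acid genes rose and 1 fell. Those are 23.8% and 60%, against 24.9% of all genes (14% higher, 10.9% lower), so in this fit the sterol share was near that of all genes. The sterol count depends on the fit. With a replicate block 5 of the 7 early sterol genes and 5 of the 11 from squalene to cholesterol fell. The share of all genes called with that block is not given, so the sterol share was not compared there. Palmul-tang changed 0 sterol genes and 1 fatty acid gene (0.152% of all genes called), Sibjeondaebo-tang 0 and 1 (0.371%), Poria 1 and 1 (1.86%) and Ginseng 1 and 1 (2.52%). The median change of the 21 sterol genes was -0.35 with Atractylodes and -0.13 with Glycyrrhiza, and -0.06, -0.06, 0.02 and 0.01 with Palmul-tang, Sibjeondaebo-tang, Poria and Ginseng. The median of all tested genes was between -0.01 and 0.00 in these 6 comparisons. For the 10 fatty acid genes the medians were 0.05 with Atractylodes and 0.17 with Glycyrrhiza, and between -0.03 and 0.01 with the other 4.

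**Figure D1:**
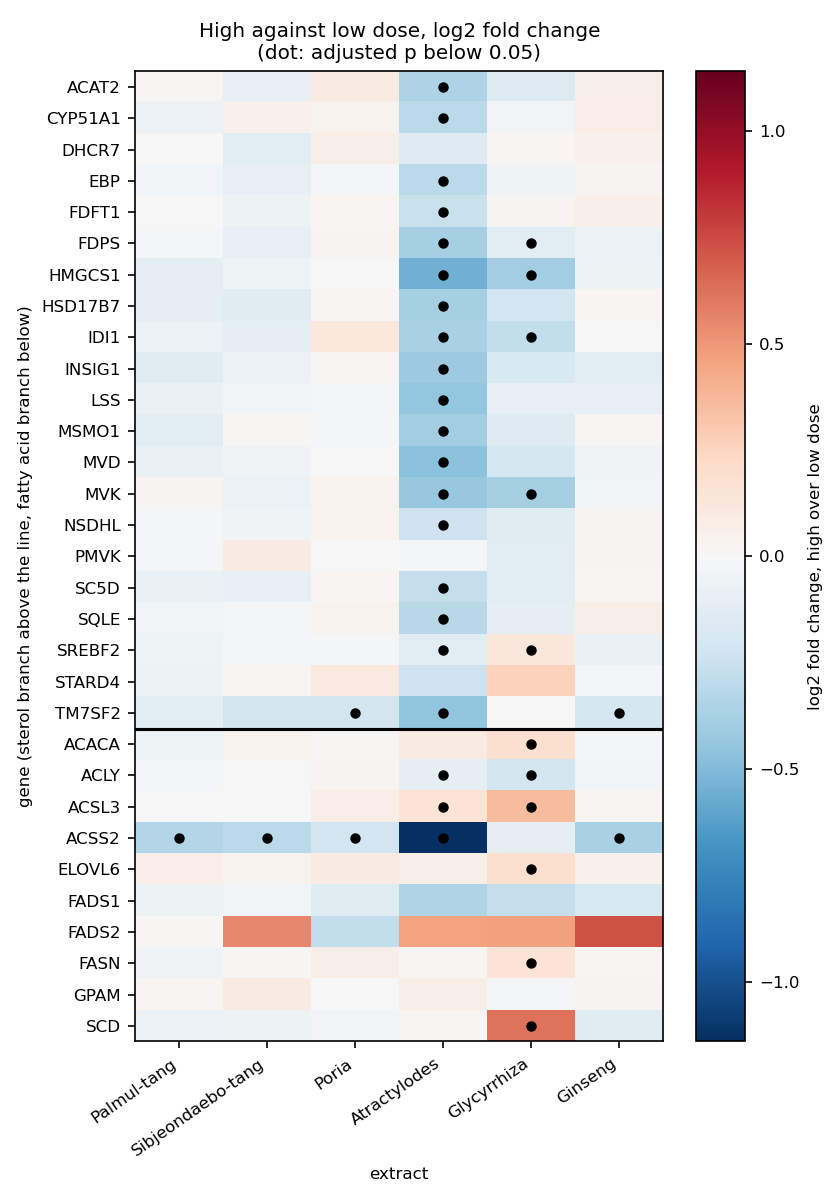
Log2 fold change of the high over the low dose for the 31 genes (rows, sterol branch above the line and fatty acid branch below) and 6 extracts (columns). Colour runs from -1.14 (blue) to 1.14 (red), the largest change of any member, and a dot marks a called gene. The Atractylodes column is blue with dots for 18 of 21 sterol genes, and ACSS2 is dotted in 5 of 6 columns.

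**Figure D2:**
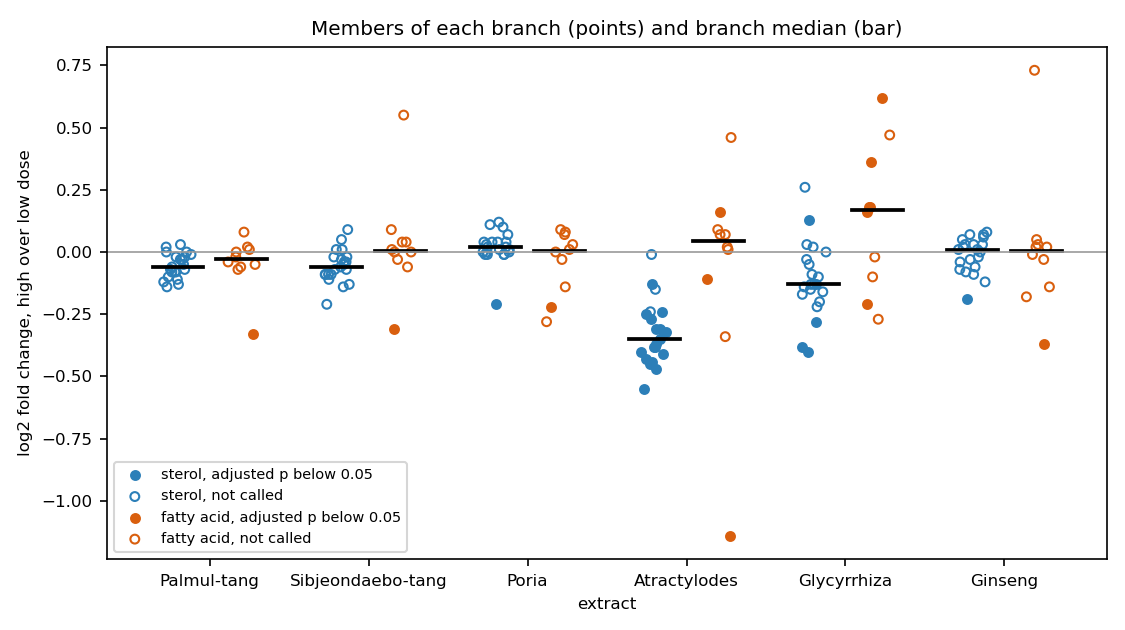
The same log2 fold changes by branch, 1 point per gene (filled where called) with a bar at the median of the branch. Sterol genes with Atractylodes lie from -0.55 to -0.01 around a median of -0.35, while the fatty acid median there is 0.05. The open points far above 0 are FADS2, with few counts.

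The early steps of the sterol branch fell with Atractylodes, 6 of the 7 genes from acetyl-CoA to farnesyl diphosphate. HMGCS1 stood at 324, 264 and 289 CPM in the 3 low dose libraries, 307, 275 and 271 at the medium dose and 220.0, 193 and 186 at the high dose. All high dose libraries were thus below all others of the extract, while low and medium overlapped. Its fall was -0.55 ± 0.10 (adjusted p = 1.6e-04), or -31.7%. MVD, which decarboxylates mevalonate diphosphate, was at 61.2, 63.0 and 60.4 CPM at the low dose, 59.5, 59.5 and 57.2 at the medium and 43.3, 46.7 and 43.1 at the high dose. Its 3 doses did not overlap, with the larger step from medium to high, and the change from low to high was -0.47 ± 0.08 (adjusted p = 9.7e-05). MVK, the mevalonate kinase, fell by 0.43, FDPS, which makes farnesyl diphosphate, by 0.38, IDI1, the isopentenyl diphosphate isomerase, by 0.37 and ACAT2, the cytosolic thiolase of the first step, by 0.35. PMVK, the kinase between MVK and MVD, was the exception at -0.01 ± 0.10 (95% interval -0.21 to 0.18).

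From squalene to cholesterol 10 of 11 genes fell with Atractylodes. TM7SF2, a reductase of the sterol ring, was at 50.4, 48.1 and 49.2 CPM at the low dose, 43.4, 45.6 and 43.7 at the medium and 37.6, 37.0 and 33.3 at the high dose. Here the 3 doses did not overlap, and the change from low to high was -0.45 ± 0.05 (adjusted p = 1.2e-08). LSS, which closes squalene epoxide to lanosterol, had the smallest p of the branch. It went from 130.4, 132 and 137 CPM through 129, 123 and 126 to 96.3, 101 and 96.8, a fall of -0.44 ± 0.03 (adjusted p = 9.9e-14). The ring enzymes MSMO1 (-0.40), HSD17B7 (-0.38), CYP51A1 (-0.31), EBP (-0.31), SC5D (-0.27) and NSDHL (-0.24) fell too, as did SQLE (-0.32) and the squalene synthase FDFT1 (-0.25). DHCR7, at -0.15 ± 0.06, did not pass (adjusted p = 0.18). Of the controls, INSIG1, itself a target of SREBP2, fell by 0.41 and SREBF2 by 0.13, and the sterol carrier STARD4 was at -0.24 ± 0.10 (adjusted p = 0.23). Leaving out 1 library at a time gave 14 to 19 sterol calls, and each of HSD17B7, MSMO1, NSDHL, SC5D, SQLE and SREBF2 lost its call without at least 1 library. The mitochondrial share was 7.35% ± 1.20 (SD, n = 3) at the low and 7.54% ± 0.50 at the high dose, and with it as a covariate all 18 calls remained.

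The fatty acid branch did not share this fall. ACSS2 was at 33.1, 29.7 and 33.0 CPM at the low dose of Atractylodes, 27.7, 27.1 and 26.2 at the medium and 15.0, 14.6 and 14.0 at the high dose. The 3 doses were fully apart, and the change of -1.14 ± 0.06 (adjusted p = 9.4e-19) was the largest of any member in any high against low comparison. ACSL3, which activates long-chain fatty acids, went the other way, from 237, 223 and 224 CPM through 236, 236 and 232 to 255, 255 and 255, a rise of 0.16 ± 0.03 (adjusted p = 5.9e-04). ACLY fell by 0.11 ± 0.03 (adjusted p = 0.033), with overlapping libraries, and lost its call in 4 of the 6 fits that left out a library. FASN (0.01 ± 0.05), SCD (0.02 ± 0.04), GPAM (0.07 ± 0.06), ELOVL6, an elongase (0.07 ± 0.04), and ACACA, the acetyl-CoA carboxylase (0.09 ± 0.03), were not called. For SCD the 95% interval was -0.07 to 0.11.

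The fall with Atractylodes lay mostly between the medium and the high dose. Of 21 sterol genes 18 had lower means at each step and 20 were lowest at the high dose. The median was -0.05 from low to medium and -0.28 from medium to high. From low to medium 0 of 31 members were called (0.00608% of all genes), and from medium to high 14 sterol genes fell, with 2 fatty acid genes lower and 1 higher (1.45% of all genes, 0.687% lower and 0.76% higher). ACSS2 carried most of its change there too, -0.89 ± 0.06. In the medium against low comparison of every other extract 0 members were called, where 0.00608% of all genes (Palmul-tang and Sibjeondaebo-tang) or 0% (Poria, Glycyrrhiza and Ginseng) passed.

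**Figure D3:**
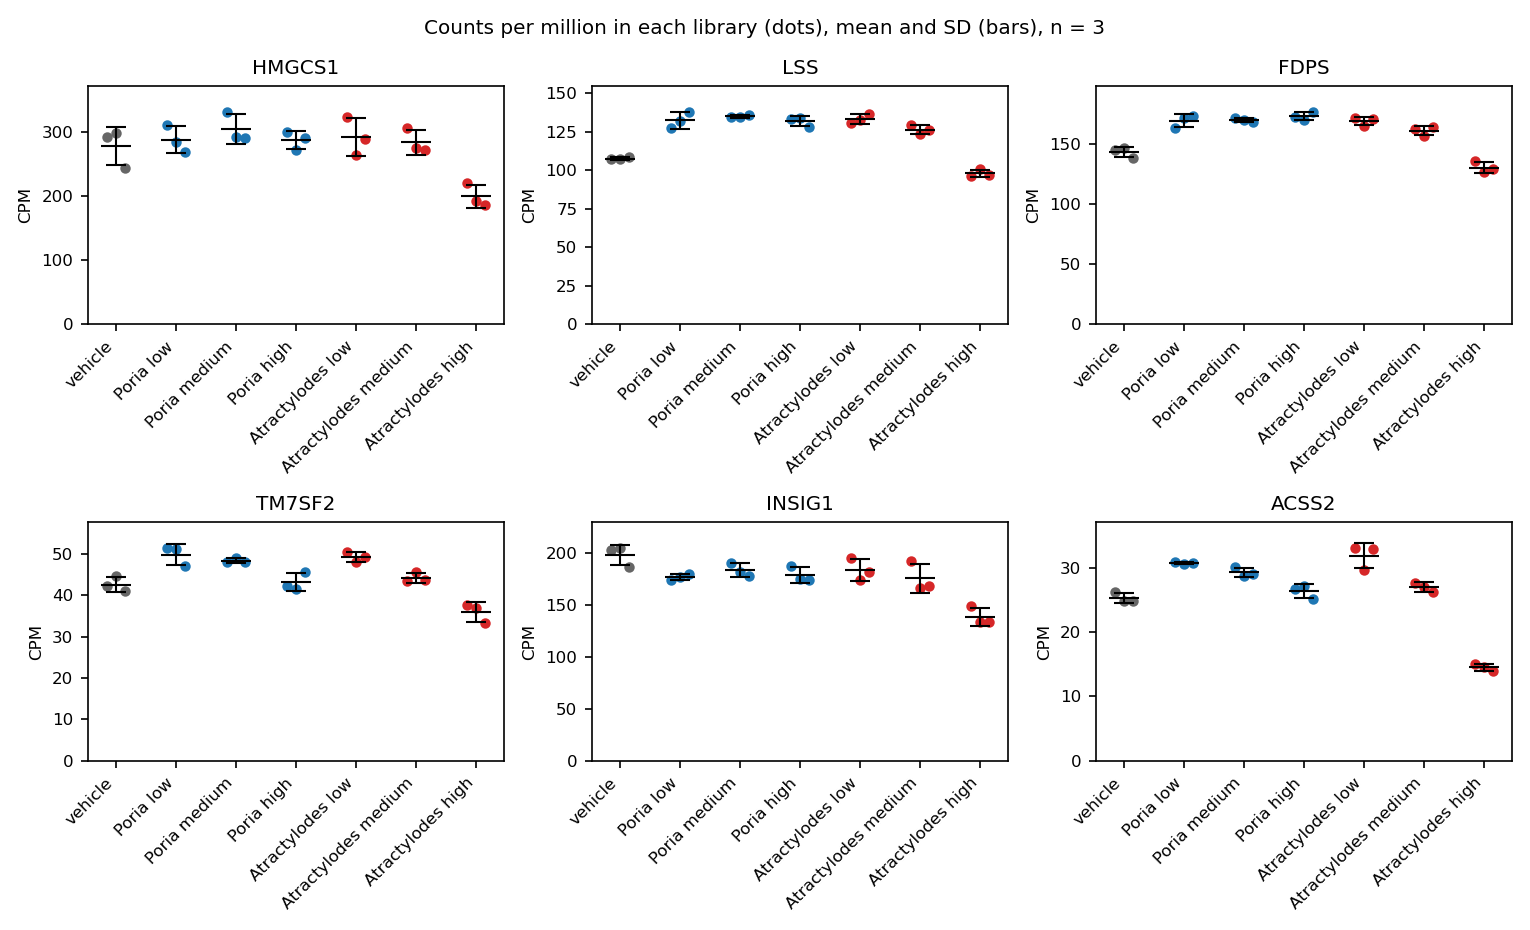
CPM of HMGCS1, LSS, FDPS, TM7SF2, INSIG1 and ACSS2 in each library (dots) of vehicle, Poria and Atractylodes, with the mean and SD as bars (n = 3). The 3 high dose Atractylodes libraries are the lowest of each panel, and for ACSS2 they lie between 14.0 and 15.0 CPM.

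Poria, an extract of a fungus, belongs to the same set and was given at the same 3 doses. Its high dose left HMGCS1 at 300.3, 273 and 290.5 CPM against 311, 284 and 269 at the low dose, and LSS at 133, 134 and 128 against 127, 132 and 138. Both genes overlapped between the doses, at 0.00 ± 0.10 and -0.01 ± 0.03. Only TM7SF2 and ACSS2 fell. TM7SF2 was at 51.4, 51.1 and 47.0 CPM at the low dose, 48.1, 49.0 and 48.0 at the medium and 42.2, 41.6 and 45.7 at the high dose (-0.21 ± 0.05, adjusted p = 0.016). ACSS2 was at 31, 30.6 and 30.7, then 30.1, 28.8 and 29, then 26.8, 27.2 and 25.1 CPM (-0.22 ± 0.06, adjusted p = 0.033). In both genes all high dose libraries lay below those of the other doses. Without any 1 of the 6 libraries the ACSS2 call was lost (adjusted p of 0.057 to 0.19), and that of TM7SF2 was lost without high 1, high 2, low 1 or low 2 (adjusted p of 0.086 to 0.12).

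Set against each other at 500 µg/mL, Atractylodes was lower than Poria in 17 of 21 sterol genes and higher in 0, and in the fatty acid branch 2 were lower and 1 higher, where 0.979% of all genes differed, 0.535% lower and 0.444% higher. LSS differed by -0.43 ± 0.03 (adjusted p = 8.7e-13), FDPS by -0.41 ± 0.04 (9.9e-09), HMGCS1 and MVD by -0.53 each, and ACSS2 by -0.86 ± 0.06 (1.2e-13). ACLY was lower by 0.20 and ACSL3 higher by 0.14. The difference between the high minus low effects of these extracts, which sets each against its own low dose, was called for ACSS2 (-0.91), IDI1 (-0.50), ACAT2 (-0.45), LSS (-0.44), FDPS (-0.41) and FDFT1 (-0.27). Those 6 members compare with 0.158% of all genes, and without the filter on low counts 18 members were called. It was negative for all 21 sterol genes, with a median of -0.37. IDI1 and FDFT1 lost their calls when most single libraries were left out.

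**Figure D4:**
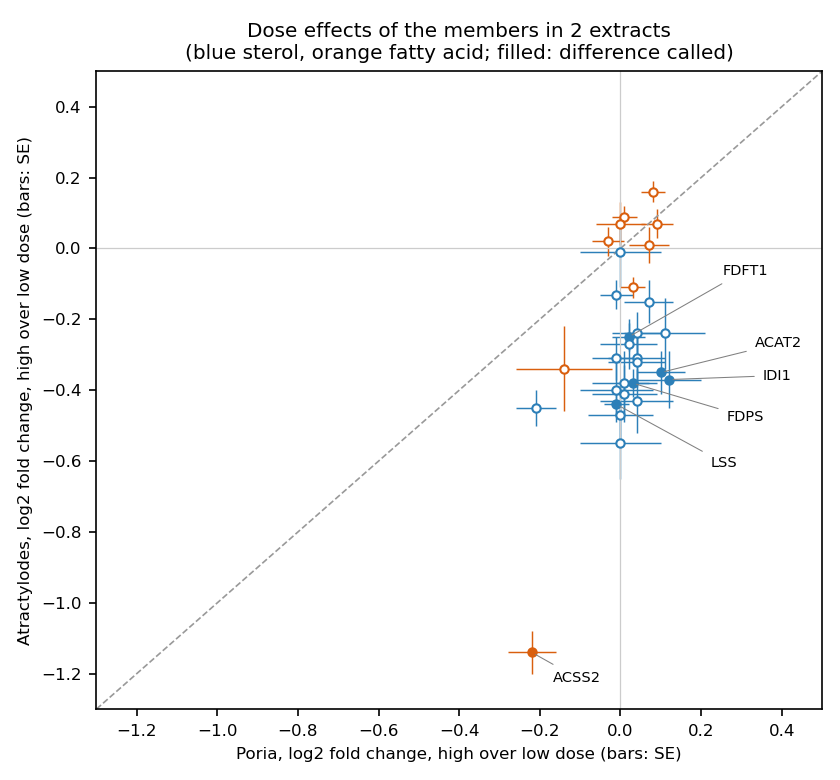
High over low dose log2 fold change (± SE) with Poria (x axis) and Atractylodes (y axis), sterol genes in blue and fatty acid genes in orange, filled where the difference between the extracts was called. FADS2, with 2 to 13 counts per library, is left out. All sterol points lie below the dashed line of equal change, and ACSS2 lies far down at -1.14.

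With Glycyrrhiza 5 of the 10 fatty acid genes rose, 1 fell and 4 were not called. SCD stood at 1854, 1819.8 and 1771 CPM at 14 µg/mL, 1998, 1924 and 1915 at 70 µg/mL and 2773, 2892 and 2710.5 at 350 µg/mL. The 3 doses did not overlap, and the change from low to high was 0.62 ± 0.04 (adjusted p = 6.4e-16), or 53.8%. ACSL3 went from 221, 216 and 218 CPM through 231, 224 and 226 to 289, 276 and 275, also without overlap, a rise of 0.36 ± 0.03 (adjusted p = 4.1e-13). ACACA rose by 0.18, ELOVL6 by 0.18 and FASN by 0.16, and FASN lost its call without high 1, high 2 or low 3 (adjusted p of 0.087 to 0.13). Thus the carboxylase, the synthase, the elongase and the first desaturase of the chain all rose. ACLY, which supplies their acetyl-CoA, fell by 0.21 ± 0.03 (adjusted p = 1.1e-06), from 402, 389 and 403 to 332, 356 and 344 CPM without overlap. ACSS2, at -0.10 ± 0.06 (95% interval -0.23 to 0.02), was not called.

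The 4 sterol genes called lower with Glycyrrhiza were all of the early steps. HMGCS1 was at 288, 246 and 264 CPM at the low dose, 260.2, 211 and 239 at the medium and 215, 193 and 195 at the high dose. Only low and high were free of overlap, and the change was -0.40 ± 0.10 (adjusted p = 0.0013). MVK was at 50.9, 41.3 and 43.1 CPM, then 45.9, 39.5 and 38.8, then 36.2, 31.9 and 36.2, a change of -0.38 ± 0.09 (adjusted p = 0.0011). IDI1 was at 169, 146 and 158 CPM, then 150.2, 121 and 139, then 139, 126 and 124, a change of -0.28 ± 0.08 (adjusted p = 0.0067). For both genes the high dose lay below the low dose in all libraries, with the medium dose overlapping at least 1 of them. FDPS fell by 0.13. Of the 11 genes from squalene to cholesterol 0 were called, with a median of -0.09. Yet 5 of them fell with a replicate block, 3 without the filter on low counts and 1 with the 6 libraries alone. The difference between early and late steps was not tested. Without low library 1 the sterol calls were 3 in place of 5, IDI1 (adjusted p = 0.061) and FDPS (0.19) being lost, and across all alternatives the count ran from 3 to 13. The median of all sterol genes moved by -0.11 from low to medium and by -0.02 from medium to high, the opposite order of Atractylodes. From low to medium, however, 0 of all genes were called, and from medium to high 2 of the 3 control and transport genes rose. The means of HMGCS1 and MVK did not follow this order and fell more from medium to high.

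From low to high dose SREBF2 was the 1 member called in opposite directions by different extracts. With Glycyrrhiza it went from 299, 296 and 282 CPM through 305, 290.3 and 289 to 318, 328 and 312, a rise of 0.13 ± 0.04 (adjusted p = 0.0053). With Atractylodes it went from 288, 311 and 295 through 299, 279.9 and 285 to 273, 276 and 265, a fall of -0.13 ± 0.04 (adjusted p = 0.016). In both, high and low dose libraries did not overlap. Each call was lost without some single library (adjusted p of up to 0.056 and 0.18), both were lost without the filter on low counts (0.088 with Glycyrrhiza, 0.15 with Atractylodes), and that with Atractylodes also with its 6 libraries alone (0.12). The difference between those 2 effects was not tested.

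**Figure D5:**
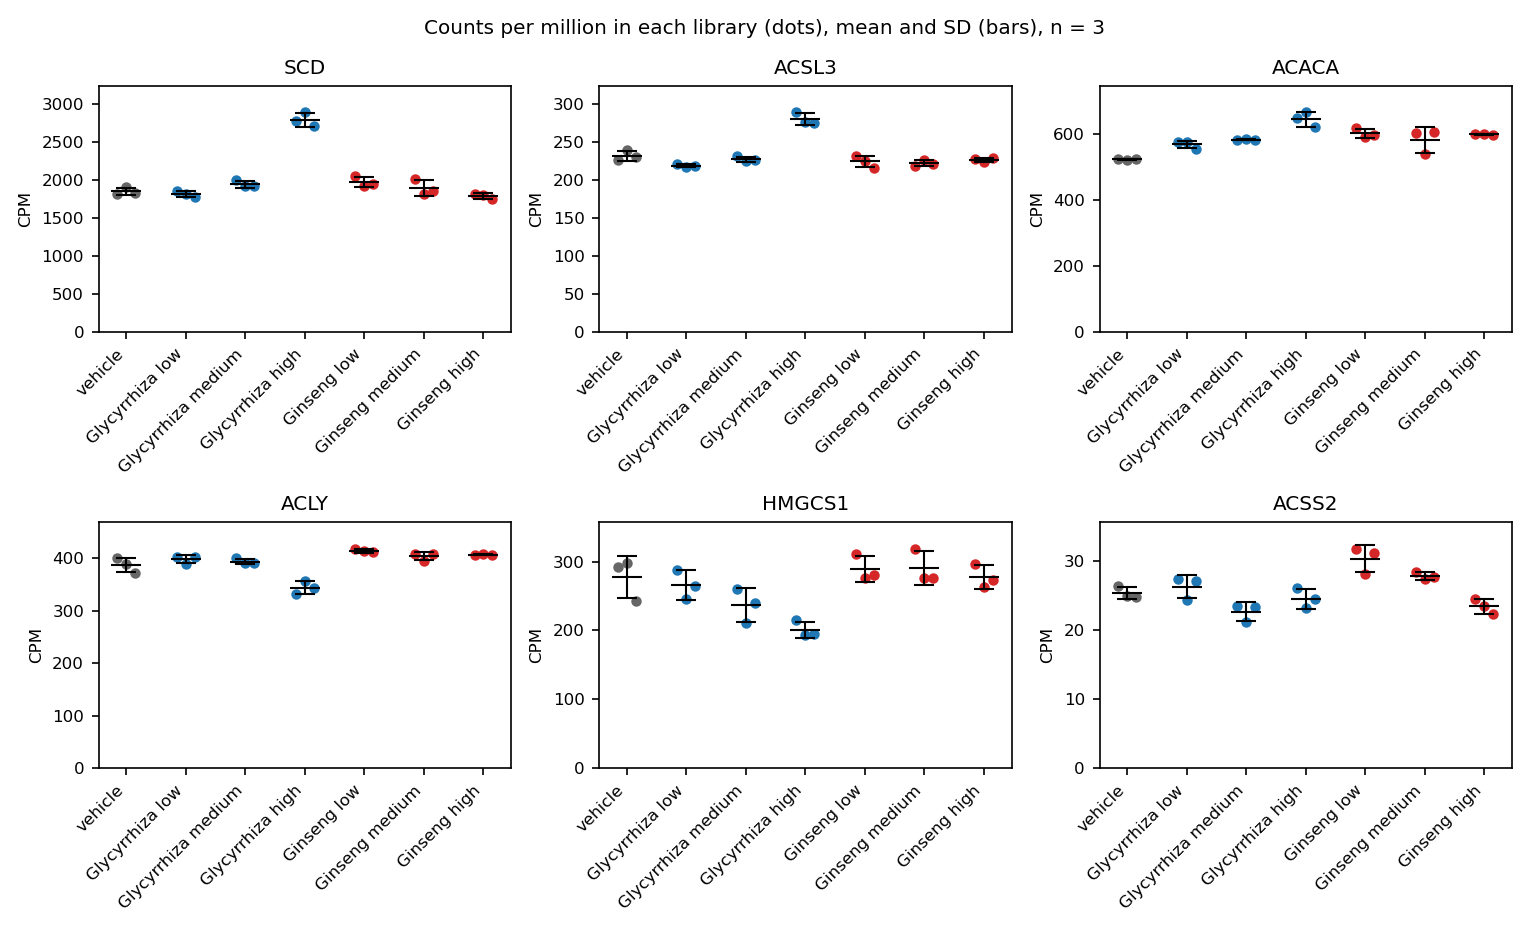
CPM of SCD, ACSL3, ACACA, ACLY, HMGCS1 and ACSS2 in each library (dots) of vehicle, Glycyrrhiza and Ginseng, with the mean and SD as bars (n = 3). SCD and ACSL3 are highest at the high dose of Glycyrrhiza, where ACLY is lowest, and the ACSS2 mean steps down with dose with Ginseng.

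Ginseng, of the same set, went from 2049, 1919.7 and 1945 CPM of SCD at the low dose to 1815, 1805 and 1751 at the high dose, which did not pass. It lowered ACSS2, from 31.7, 28.1 and 31.1 through 28.4, 27.3 and 27.6 to 24.4, 23.4 and 22.3 CPM (-0.37 ± 0.06, adjusted p = 9.3e-05). TM7SF2 went from 46.6, 50.6 and 44.4 through 47.9, 49.5 and 44.7 to 43.0, 42.2 and 38.7 CPM (-0.19 ± 0.05, adjusted p = 0.032), and lost its call without low 1, low 2, high 2 or high 3 (adjusted p of 0.054 to 0.23). At the high doses, 500 against 350 µg/mL, 14 members differed between Ginseng and Glycyrrhiza, 9 higher and 5 lower with Ginseng, where 23.3% of all genes did (9.98% higher, 13.3% lower). The doses differ, so the values only stand side by side. The high minus low effect differed for SCD (-0.76), ACSL3 (-0.34), ACSS2 (-0.27), SREBF2 (-0.21), ACACA (-0.19) and ACLY (0.19), Ginseng minus Glycyrrhiza, beside 12.9% of all genes.

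With each decoction ACSS2 was the 1 called member. With Palmul-tang it was at 30.3, 25.8 and 28.7 CPM at the low dose, 31.1, 27.3 and 27.5 at the medium and 24.2, 21.8 and 21.9 at the high dose (-0.33 ± 0.06, adjusted p = 0.0053). The call was lost without low 1, high 2 or high 3 (adjusted p of 0.064 to 0.13). With Sibjeondaebo-tang it was at 29.7, 30.2 and 28.9, then 31.8, 27.4 and 27.5, then 24.3, 23.3 and 23.9 CPM (-0.31 ± 0.06, adjusted p = 0.0037). In both the high dose alone stood below the other 2 doses. With the 6 libraries of a decoction alone neither call held (adjusted p = 0.14 and 0.097). TM7SF2 with Sibjeondaebo-tang, at -0.21 ± 0.05, was not called (adjusted p = 0.051) but passed with RLE size factors (0.046), without the filter (0.021), with DESeq2 (0.021) and with the mitochondrial covariate (0.033). Sibjeondaebo-tang against Palmul-tang at 500 µg/mL gave 0 called members in edgeR and 0 in DESeq2, where 0% of all genes passed and 913 had an unadjusted p below 0.05. The smallest unadjusted p of a member was 0.0699, for LSS (0.06, 95% interval -0.01 to 0.13). The high minus low effects did not differ in any member either (0% of all genes).

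ACSS2 was thus lower at the high than at the low dose in 5 of 6 extracts, by 0.22 to 1.14, and TM7SF2 in 3 of 6, by 0.19 to 0.45. Of all tested genes 0.0426% were called lower in at least 5 extracts and 0.748% in at least 3. The 6 comparisons share no library, although the fit gives them 1 estimate of the spread. With the 6 libraries of each comparison alone ACSS2 was called in 2 of 6 and TM7SF2 in 1 of 6, without the filter ACSS2 in 4, and with RLE size factors, DESeq2 or the mitochondrial covariate TM7SF2 in 4. No other member was called in more than 2 extracts.

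Each high dose was also compared with vehicle. Here the sets and the vehicle libraries cannot be told apart, all 6 comparisons share the same 3 vehicle libraries, and members differed from vehicle already at the lowest doses. At the low doses ACAT2, FDPS and LSS were higher than vehicle in 6 of 6 extracts, by 0.17 to 0.31. ACACA was higher in 6 of 6, by 0.12 to 0.21, and SC5D lower in 6 of 6, by 0.20 to 0.25. PMVK was at 14.8, 15.7 and 12.5 CPM in vehicle and between 16.6 and 21.9 CPM in the 18 low dose libraries, higher by the test in 5 of 6. These low dose comparisons called 8 to 13 members, beside 20.4% and 20% of all genes for Palmul-tang and Sibjeondaebo-tang, 18.5% for Poria, 22.4% for Atractylodes, 17.6% for Glycyrrhiza and 13% for Ginseng. Vehicle library 3 was the lowest of the 3 for HMGCS1 (292, 298 and 243 CPM), IDI1 (164, 162 and 142) and MVD (51.1, 51.1 and 44.2).

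At the high doses 8 members differed from vehicle with Palmul-tang (21.7% of all genes), 11 with Sibjeondaebo-tang (27.4%), 12 with Poria (25%), 20 with Atractylodes (22.5%), 14 with Glycyrrhiza (34.3%) and 9 with Ginseng (18.9%). Atractylodes was the extract with mostly lower members, 15 against 5 higher, where 10.6% of all genes were lower and 11.9% higher. Higher members of the others numbered 6 (11.7% of all genes), 9 (14.2%), 11 (13.4%), 8 (18.8%) and 7 (10.3%) in the same order. With Atractylodes 13 sterol genes were lower than vehicle, among them INSIG1 (-0.51 ± 0.08, adjusted p = 2e-06), SC5D (-0.49 ± 0.07, adjusted p = 6.3e-07), HMGCS1 and MSMO1 (-0.48 each). PMVK was higher by 0.49. LSS was lower by 0.13 there but higher by 0.29 with Poria, 0.24 with Sibjeondaebo-tang, 0.18 with Palmul-tang and 0.15 with Ginseng. With Glycyrrhiza SCD was higher by 0.59 ± 0.04 and ACSL3 by 0.27 ± 0.03, as against the low dose. The 14 members there include FADS2, at 0.493, 0.615 and 0.26 CPM against 0.0976, 0.306 and 0.159 in vehicle (1.25 ± 0.48, adjusted p = 0.041), a call that rests on few counts and overlapping libraries. FDPS, TM7SF2 and ACLY, like LSS, were called in both directions against vehicle. INSIG1 was lower than vehicle in 5 of 6 extracts and ACACA and ELOVL6 were higher in 6 of 6. With the mitochondrial share, which was highest in vehicle, as a covariate the counts for Palmul-tang, Sibjeondaebo-tang and Ginseng were 5, 6 and 4. Without vehicle library 3 that of Sibjeondaebo-tang was 6.

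Other genes of the pathway were read from lists chosen with the members, again from low to high dose. Of 7 liver X receptor targets and receptor genes 5 rose with Atractylodes (1.93% of all genes higher) and 6 with Glycyrrhiza (14% higher), 0 fell, and 0 of 7 were called with each of the other 4 extracts. The list medians were 0.41 and 0.47. The sterol exporter ABCG1 rose by 1.97 ± 0.12 (adjusted p = 1.6e-17) with Atractylodes and by 2.28 ± 0.12 (1.2e-20) with Glycyrrhiza, and its partner exporter ABCA1 by 0.50 and 0.60. MYLIP, a ubiquitin ligase, rose by 0.57 and 0.43, LPCAT3, a phospholipid acyltransferase, by 0.41 and 0.47, and NR1H3, the receptor LXR alpha, by 0.30 and 0.49. HMGCS1, MVK, IDI1 and FDPS were called lower with both of these extracts.

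Of 18 tested genes of fatty acid elongation, activation and glycerolipid assembly 9 rose and 2 fell with Glycyrrhiza (median 0.24), beside 14% of all genes higher and 10.9% lower. ACSL1, another activating enzyme, rose by 0.61 ± 0.06 and FADS3, a desaturase relative, by 0.60 ± 0.11, while DGAT2, which completes triglycerides, fell by 0.54 ± 0.10. With Atractylodes 1 rose and 2 fell, and with each of the other 4 extracts 1 rose. That 1 gene was ME1, the malic enzyme that makes NADPH for chain synthesis, which rose in all 6 extracts by 0.24 to 0.40. Of all tested genes 0.0547% were called higher in all 6. Of 12 genes of sterol transport and storage NPC2, a lysosomal sterol carrier, fell with Sibjeondaebo-tang, Atractylodes and Ginseng (-0.32, -0.28 and -0.25), and the lipoprotein receptor SCARB1 rose with Poria, Atractylodes and Ginseng (0.22, 0.13 and 0.15). In at least 3 extracts 0.748% of all tested genes were called lower and 0.821% higher. With Glycyrrhiza 3 of these 12 rose and 2 fell, which can be read against the same 14% and 10.9%, led by NPC1, the lysosomal sterol exporter (0.36), the lysosomal lipase LIPA (0.30) and GRAMD1B, which moves sterol from the plasma membrane (-0.25). Of 10 genes of SREBP processing 4 rose and 1 fell with Glycyrrhiza and 1 rose with Atractylodes, and of 9 isoprenoid and dolichol genes 2 rose and 1 fell with Glycyrrhiza. All genes called made up 24.9% with Glycyrrhiza and 3.95% with Atractylodes, so the isoprenoid count was near that of all genes. In both lists 0 were called with Palmul-tang, Sibjeondaebo-tang, Poria and Ginseng.

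Across the 54 libraries of the 6 extracts, centred on the mean of their set, most sterol genes varied together and most fatty acid genes did not. The median Pearson r was 0.67 over 210 pairs of sterol genes (146 above 0.5), 0.04 over 45 pairs of fatty acid genes (6 above 0.5) and -0.03 over 210 mixed pairs. The fatty acid pairs include those of FADS2 (2 to 13 counts per library) and FADS1 (93 to 175), where counting noise weighs more. Pairs of other genes were not taken for comparison. ACSS2 and ACLY, which feed acetyl-CoA to both branches, had a median r with the sterol genes of 0.68 and 0.61. ACSL3 (-0.35), ACACA (-0.30) and ELOVL6 (-0.29) had negative values. These values include the high dose of Atractylodes and were not taken without it. With Palmul-tang, Sibjeondaebo-tang, Poria and Ginseng ACSS2 fell from low to high dose while at most 1 sterol gene was called. PMVK stood out of its branch at 0.04, SREBF2 was at 0.32 and STARD4 at 0.40. Without the 3 high dose Atractylodes libraries the sterol median was 0.47. Centred on each group, which removes dose and extract, it was 0.42 and the fatty acid median 0.19. Centring on group leaves in any shift that follows the replicate number. HMGCS1 and SQLE were highest in library 1 of every treated group with replicates, and IDI1, MSMO1, INSIG1 and STARD4 in most of them. How much of the 0.42 such a shift makes up was not tested. These libraries share sets, replicate numbers and normalization, and the values only describe them.

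Angelica had 1 library per dose and no test. ACSS2 was at 34.0, 29.9 and 24.1 CPM from low to high dose, HMGCS1 at 285.5, 321 and 291 and SCD at 1964, 1955 and 1754. Of the sterol genes 16 of 21 were lower at the high than at the low dose with a median log2 ratio of -0.04, and 6 of 10 fatty acid genes with -0.05. ACSS2 was lower at each higher dose, and HMGCS1 was not.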

How the data were processed

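RNA of 60 HT29 samples was sequenced as 100 bp pairs from directional libraries, per the labels' protocols. Values are expected counts per gene as deposited by the authors. RSEM 1.3.3 estimated them, with FastQC 0.11.9, Trim Galore 0.6.5, STAR 2.7.3a and the build hg38 also named, per the submitters' processing notes. RSEM shares reads of near-identical copies by probability. Expected counts were rounded to whole numbers (7.7% to 9.78% per library were not whole), and 213 columns of other samples were not used here. Vehicle is 0.1% DMSO in the labels, while another percentage stands in the series text.

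The 57 libraries of the 19 groups of 3 were fitted together with edgeR 4.0.16 (R 4.3.3), using filterByExpr, TMM factors of 0.956 to 1.031 and its quasi-likelihood test (38 residual degrees of freedom). P-values were Benjamini-Hochberg adjusted over 16445 genes in each of 42 comparisons. CPM are counts per M of the TMM-scaled total over these genes. The procedure was tested on simulated counts that held no shift by replicate number, so that test does not cover such a shift.

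The members and lists were chosen with earlier results of these data known. Each library's value is given, per extract, for up to 3 sterol and 2 fatty acid members with the largest called change from low to high dose and for members that extracts moved in opposite directions between these doses. Others were chosen after their values were seen: LSS, HMGCS1 with Poria, ACLY with Glycyrrhiza, SCD with Ginseng, PMVK at the low doses, the vehicle values and Angelica. Of the SREBP processing list only counts are given. Alternatives were RLE factors, no filter, DESeq2 1.42.0, a replicate block, the 6 libraries alone, leaving out each library and a covariate for the mitochondrial share. The medium dose as reference was added after seeing the data.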

Additional observations from a re-analysis of the deposited data

Results flagged for a closer look

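The effect of dose (high minus low) differed between the extracts of a set in these members, by the test of the difference itself (edgeR's quasi-likelihood test, Benjamini-Hochberg adjusted over all genes). Atractylodes minus Poria was -0.91 for ACSS2 (adjusted p = 6.1e-10), -0.44 for LSS (3.6e-08), -0.41 for FDPS (0.00012), -0.45 for ACAT2 (0.0067), -0.50 for IDI1 (0.039) and -0.27 for FDFT1 (0.039), on the log2 scale. With Atractylodes all 3 high dose libraries lay below the 3 low dose libraries for each of these genes.

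Ginseng minus Glycyrrhiza was -0.76 for SCD (adjusted p = 4.3e-13), -0.34 for ACSL3 (7.6e-08), -0.19 for ACACA (0.0065), -0.21 for SREBF2 (0.003), -0.27 for ACSS2 (0.03) and 0.19 for ACLY (0.0036). The doses of these extracts differ, at 500 against 350 µg/mL for the high dose. Extract and dose cannot be told apart here.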

How the results depend on the processing

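Of the 84 calls of single genes in the high against low dose, direct and difference comparisons, all kept their direction and call with RLE factors, DESeq2 and the replicate block. With the 6 libraries alone 10 of 72 lost the call, and without the filter on low counts 10 of 84. Leaving out 1 library at a time removed the call in 104 of 576 fits, and 0 reversed.

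Counts from high to low dose moved as follows. With the 6 libraries alone Palmul-tang and Sibjeondaebo-tang had 0 fatty acid calls in place of 1, Poria 0 sterol and 0 fatty acid calls, Atractylodes 1 fatty acid call in place of 3, Glycyrrhiza 10 sterol calls in place of 5 and Ginseng 0. Sibjeondaebo-tang had 1 sterol call (TM7SF2) in place of 0 with RLE factors, no filter, the mitochondrial covariate, the replicate block and DESeq2. Without the filter Poria had 0 fatty acid calls, Glycyrrhiza 11 sterol calls and Ginseng 0, and the difference of Atractylodes and Poria had 18 members in place of 6. With the medium in place of the low dose Poria had 0 and 0 calls and Glycyrrhiza 3 sterol calls. Against vehicle the mitochondrial covariate gave 5, 6 and 4 for Palmul-tang, Sibjeondaebo-tang and Ginseng in place of 8, 11 and 9. The cause was not tested.

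Over all genes the replicate numbers did not pair the samples: in 0 comparisons did every same-numbered pair correlate above 0.1. In 2 (Sibjeondaebo-tang and Ginseng, high against low) every pair correlated best with its own number. HMGCS1 and SQLE, however, were highest in library 1 of every treated group with replicates. So were IDI1, MSMO1, INSIG1 and STARD4 in most of these groups, while for LSS and PMVK the highest library varied. Libraries 1 to 3 of HMGCS1 were at 332, 279 and 270 CPM at the Palmul-tang low dose, and those of SQLE at 967, 847 and 843. At the Ginseng high dose those of HMGCS1 were at 297, 264 and 273. The main fit has no term for the replicate number. With the replicate block Glycyrrhiza had 13 sterol calls (5 of them lower genes from squalene to cholesterol, in place of 0), Ginseng 2 fatty acid calls, Palmul-tang against vehicle 13 members, and the differences of Atractylodes minus Poria and Ginseng minus Glycyrrhiza 15 and 13 members.

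With 1 library left out, counts of sterol calls ran from 0 to 1 (Poria, Ginseng), 14 to 19 (Atractylodes) and 3 to 7 (Glycyrrhiza), the low of 3 without low library 1. Those of fatty acid calls ran from 0 to 1 (Palmul-tang), were 0 in all 6 fits for Poria, and ran from 2 to 3 (Atractylodes) and 5 to 6 (Glycyrrhiza). Against vehicle they ran from 7 to 10, 6 to 11, 10 to 13, 14 to 19, 12 to 15 and 6 to 10 for the decoctions (Palmul-tang, then Sibjeondaebo-tang), Poria, Atractylodes, Glycyrrhiza and Ginseng. Directly they ran from 14 to 20 (Atractylodes and Poria) and 10 to 14 (Ginseng and Glycyrrhiza), and for the differences of effects from 4 to 6 and 5 to 7. At 2 to 13 counts per library FADS2 has large errors, and its call against vehicle with Glycyrrhiza is uncertain.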
